A study of Saccharomyces cerevisiae with 6 samples.

Results

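The nuclear pore complex and the soluble carriers that pass through it were followed at the RNA level in yeast cells of a floating film and in the settled cells under it. The members are the genes whose symbol in the array's probe table is NUP or KAP followed by a number, with 16 named carriers and Ran genes added. In all, 42 of the 5656 genes with a probe set of their own belong to it: 20 genes of the pore, 16 of the carriers and 6 of the Ran cycle. Saccharomyces cerevisiae strain 3238-32 carries, by its labels, the alleles leu2∆1, lys2-801 and ura3-52 and the mating type MATa, and both groups share this genotype. Floaters are cells of the air-liquid interfacial biofilm, and sinkers, also called planktonic in the labels, are cells from the bottom of the same beakers. Both were taken after 48 h of standing culture at 27°C in 100 ml of a medium with 4% ethanol and no glucose added, after a preculture of 24 h at 30°C in rich medium that had used up its sugar. Total RNA of 3 floater and 3 sinker samples was measured on 1 array each. Cultures were set up in triplicate, but no label says which beaker an array came from, and p-values therefore measure only the spread between these samples, which may be partly technical.

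The nuclear pore is a ring of many copies of a set of proteins, the nucleoporins, set where the inner and outer nuclear membranes meet. Outer and inner ring proteins form its frame, and proteins rich in phenylalanine-glycine (FG) repeats line the channel and bind passing carriers. Most carriers are karyopherins: importins take up cargo in the cytoplasm, exportins take it up in the nucleus, and the small GTPase Ran sets the direction. Ran is loaded with GTP by an exchange factor in the nucleus and made to hydrolyse it by an activator in the cytoplasm, so that importins drop their cargo inside and exportins drop theirs outside. Growing yeast uses this traffic for ribosomal proteins going in and ribosome subunits going out.

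All values are linear signal intensities as the authors scaled them. Median signals over all probe sets lay between 135 and 138 on floater arrays and between 128 and 151 on sinker arrays. Sinker replicate 3 stood apart in measures of quality: its brightest unspiked control probe set read 44.8, against 16.3 to 21.9 on the other 5 arrays, and its log2 ratio of the ACT1 3' to 5' probe sets was 1.94. On the other arrays this ratio was 0.62, 1.03 and 0.64 in floaters, against 1.24 and 0.85 in sinkers, so that it tended to be lower in floaters. With it as a covariate, 20 of the 37 members tested were called higher and 2 lower, against 25 and 1 without it. That run called 1445 of all 4242 genes tested higher and 1040 lower, against 1613 and 1037 without it. Results that rest on sinker replicate 3 are given with and without it. The signals of mating-type genes went against the label MATa. The 4 alpha-specific genes summed to 5228 to 6357 on floater arrays and 3697 to 5526 on sinker arrays, while the 6 a-specific genes summed to 84.1 to 119 on floater arrays and 210.2 to 278 on sinker arrays. The a-factor receptor gene STE3 averaged 1907 in floaters and 1121 in sinkers, and the alpha-factor receptor gene STE2 lay below the controls on all 6 arrays. The LEU2 probe set was bright, at a mean of 5372 in floaters and 9133 in sinkers, although the label names a leu2 deletion. In such bulk samples, fewer cells that make an RNA and less RNA per cell cannot be told apart.

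Most of the members measured were brighter in floaters. Folds come from limma on log2(signal + 16), which understates the change of dim genes, and a gene was called at an adjusted p below 0.05 over all 4242 genes bright enough to be tested. Of the 42 members 37 were tested, and 25 of them were higher in floaters, 1 was lower and 11 did not pass. Over all genes tested 38% were called higher and 24.4% lower, 62.5% in either direction. Floater and sinker values did not overlap for 29 of the 37 members, 27 with floaters above and 2 with floaters below, where the shares over all genes tested were 68% in either direction, 41.3% above and 26.7% below. The median log2 fold change was 0.61 over the 37 members and 0.17 over all genes. Of the 37 members tested, 14 were called higher by at least 2-fold, where 19.4% of all genes tested were. Of the same 37, 1 was called lower by at least 2-fold, where 13% of all genes tested were. These counts depend on how arrays are scaled to each other. With each array centred on the median of the genes tested, 18 members were higher and 4 lower. The same centring changed the split over all genes to 1310 higher and 1334 lower, against 1613 higher and 1037 lower without it, and moved the median of all genes from 0.17 to -0.03. Without sinker replicate 3, 22 members were higher and 2 lower, where 1583 of all genes tested were higher and 1080 lower.

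**Figure D1:**
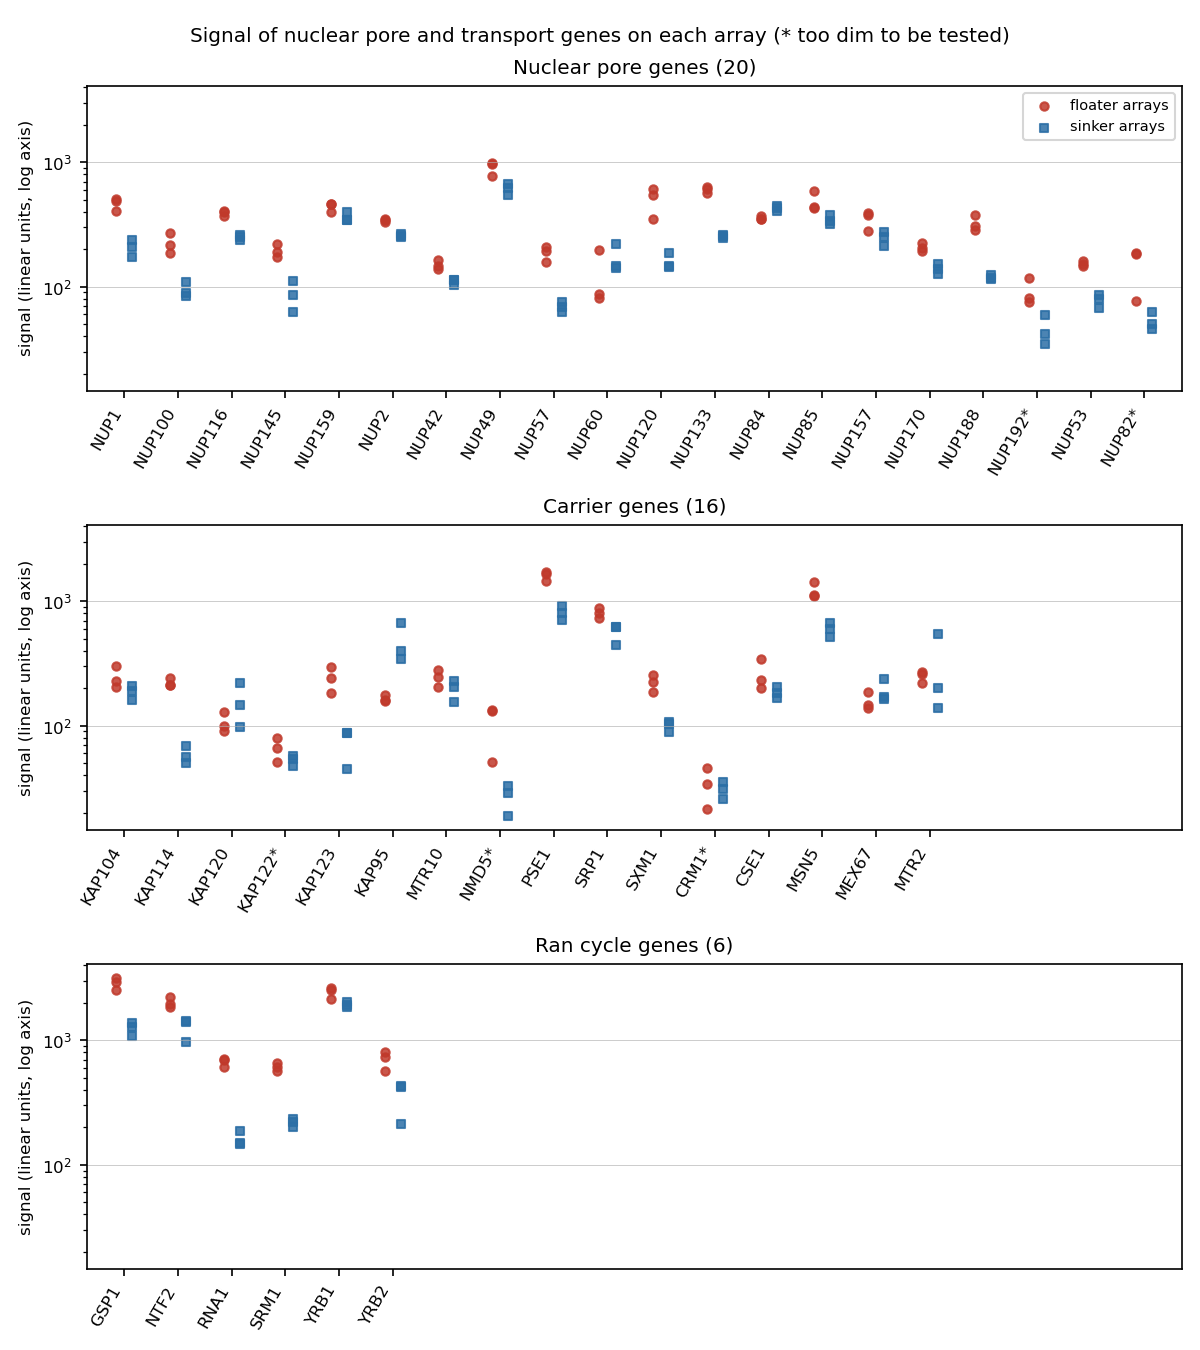
Signal on each array (linear units on a log axis) of the 20 pore, 16 carrier and 6 Ran cycle genes, with floater arrays as circles on the left and sinker arrays as squares on the right of each gene; genes with a star were too dim to be tested. RNA1 and SRM1 show a gap between floaters and sinkers with little spread in either group, KAP95 is the gene with floaters well below sinkers, and CRM1 is dim on every array.

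Among the 10 FG repeat genes 7 were higher in floaters (70%), none was lower and 3 did not pass. Over all genes tested 38% were called higher and 24.4% lower. The median log2 fold change of the FG genes was 0.58. At an unadjusted p below 0.05 in limma no FG gene was lower either. NUP57 encodes a nucleoporin of the central channel that works in a complex with Nsp1 and Nup49. Its signals were 195, 208 and 157 on floater arrays, against 74.7, 68.8 and 62.4 on sinker arrays. All floater values of NUP57 lay above all sinker values, and it was 2.39-fold higher (adjusted p = 0.000113). NUP100, which encodes a nucleoporin with repeats of the GLFG kind, had signals of 269, 218 and 188 in floaters, against 83.5, 88.8 and 109 in sinkers. NUP1, an FG protein of the nuclear face that binds importins, read 503, 404 and 485 in floaters, against 207, 174 and 237 in sinkers. In both genes the groups were again apart, with a 2.18-fold rise for NUP100 (adjusted p = 0.000420) and a 2.17-fold rise for NUP1 (adjusted p = 0.000312).

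The other FG genes changed less. NUP145, whose protein cuts itself into an FG part and an outer ring part, was 2.09-fold higher, at 195 ± 23.2 in floaters and 86.3 ± 24.2 in sinkers (mean ± SD, n = 3 in each group, as for all such values). NUP116, the paralog of NUP100, was 1.53-fold higher, at 391 ± 19.1 against 250.2 ± 13.3. NUP49, a channel partner of NUP57, was 1.47-fold higher, at 911 ± 116 against 614 ± 58.7. NUP2, which helps to release cargo and recycle importin alpha, was 1.31-fold higher, at 343 ± 10.00 against 258 ± 7.86, with an adjusted p of 0.0447 in limma. The 3 FG genes that did not pass were NUP42, NUP159 and NUP60. NUP42, which serves mRNA export on the cytoplasmic face, read 165, 148 and 139 in floaters against 113, 113 and 104 in sinkers, apart in every array but with an adjusted p of 0.0519. NUP159, the cytoplasmic docking site of the helicase Dbp5, read 460.4, 460.7 and 395 in floaters against 342, 398 and 341 in sinkers, and the groups overlapped. NUP60, which anchors Nup2 on the nuclear face, read 80.4, 87.6 and 195 in floaters against 142, 147 and 221 in sinkers. Its value on floater replicate 3 lay within the sinker range, and without that array its log2 fold change was -0.87 and passed (adjusted p = 0.00921), against -0.51 with it (adjusted p = 0.154).

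The outer ring, the Y-shaped frame of the pore, held both the largest rise among the pore members and a gene that did not rise. NUP120 read 546, 351 and 608 in floaters, against 143, 186 and 148 in sinkers. This 2.90-fold rise (adjusted p = 0.000155) was the largest among the 18 pore members tested. NUP133, at the stem of the Y, read 635, 564 and 610.1 in floaters, against 257, 246 and 261 in sinkers, a 2.28-fold rise with little spread in either group (adjusted p = 6.31e-05). NUP85, in a short arm, rose 1.37-fold, at 439, 427 and 589.9 in floaters against 337, 380.0 and 322 in sinkers (adjusted p = 0.0428). NUP84, which joins the stem to NUP133's protein, did not pass. Its signals were 373, 353 and 348 in floaters, against 445, 432 and 406 in sinkers, so that all floater values lay below all sinker values, and limma gave -0.25 ± 0.15 (log2 fold change ± SE, adjusted p = 0.173). With arrays centred on the median of the genes tested, NUP84 was called lower, at -0.45 (adjusted p = 0.0253).

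The 4 inner ring members tested were higher in floaters, where 38% of all genes tested were called higher. Outside the member rule, the inner ring gene NIC96 did not pass (log2 fold change 0.11, adjusted p = 0.686), and ASM4, too dim to be tested, was at -1.31 in a fit without the filter on dim genes (adjusted p = 0.00132). NUP188, a large frame protein, read 377, 286 and 308 in floaters, against 125, 114 and 119 in sinkers, a 2.49-fold rise (adjusted p = 8.09e-05). NUP53, which ties the inner ring to the membrane and to the importin Kap121, read 162, 151 and 148 in floaters, against 66.9, 79.0 and 85.8 in sinkers, a 1.82-fold rise (adjusted p = 0.000942). NUP170 read 205, 195 and 225 in floaters, against 127, 139 and 153 in sinkers, a 1.44-fold rise (adjusted p = 0.0173). Its paralog NUP157 rose 1.39-fold, at 350.1 ± 61.2 in floaters and 246 ± 32.3 in sinkers (adjusted p = 0.0474). The largest inner ring gene, NUP192, and NUP82, which encodes a protein on the cytoplasmic face, were too dim to be tested. NUP192 read 118, 81.4 and 74.8 in floaters, against 42.1, 59.6 and 34.5 in sinkers, the last of these below the brightest control on its array. NUP82 read 186, 77.0 and 184 in floaters, against 45.4, 50.5 and 62.2 in sinkers. In both the floater values lay above the sinker values, and in a fit without the filter both passed, NUP192 at 0.80 (adjusted p = 0.0109) and NUP82 at 1.19 (adjusted p = 0.00546).

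The smaller rises among pore genes were the least firm ones. With arrays centred on the median of the genes tested, the calls of NUP116 (log2 fold change 0.41), NUP49 (0.35), NUP170 (0.33), NUP157 (0.28), NUP85 (0.26) and NUP2 (0.19) were lost, with adjusted p between 0.0541 and 0.320. Leaving out any of the 6 arrays ended the call of NUP2 (0.37 to 0.42). The call of NUP157 was lost without floater replicate 1 (0.42) or 2 (0.39) and without sinker replicate 1 (0.38) or 3 (0.49). That of NUP85 was lost without floater replicate 1 (0.52) or 3 (0.31) and without sinker replicate 1 (0.44) or 3 (0.41), and that of NUP170 without floater replicate 3 (0.47) or sinker replicate 1 (0.47). The calls of NUP157, NUP85 and NUP2 were also lost after quantile normalization, with the replicate number as a block and with the ACT1 ratio as a covariate. With that covariate limma gave log2 fold changes of 0.50 for NUP157 (adjusted p = 0.0942), 0.31 for NUP85 (adjusted p = 0.233) and 0.38 for NUP2 (adjusted p = 0.106). NUP49, NUP170 and NUP85 have further, dimmer probe sets. For NUP170 and NUP49, 1 of these each lay above the controls on all 6 arrays, and neither showed the rise, with log2 fold changes of -0.26 for NUP170 and -0.18 for NUP49. For NUP85 none of them did so.

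**Figure D2:**
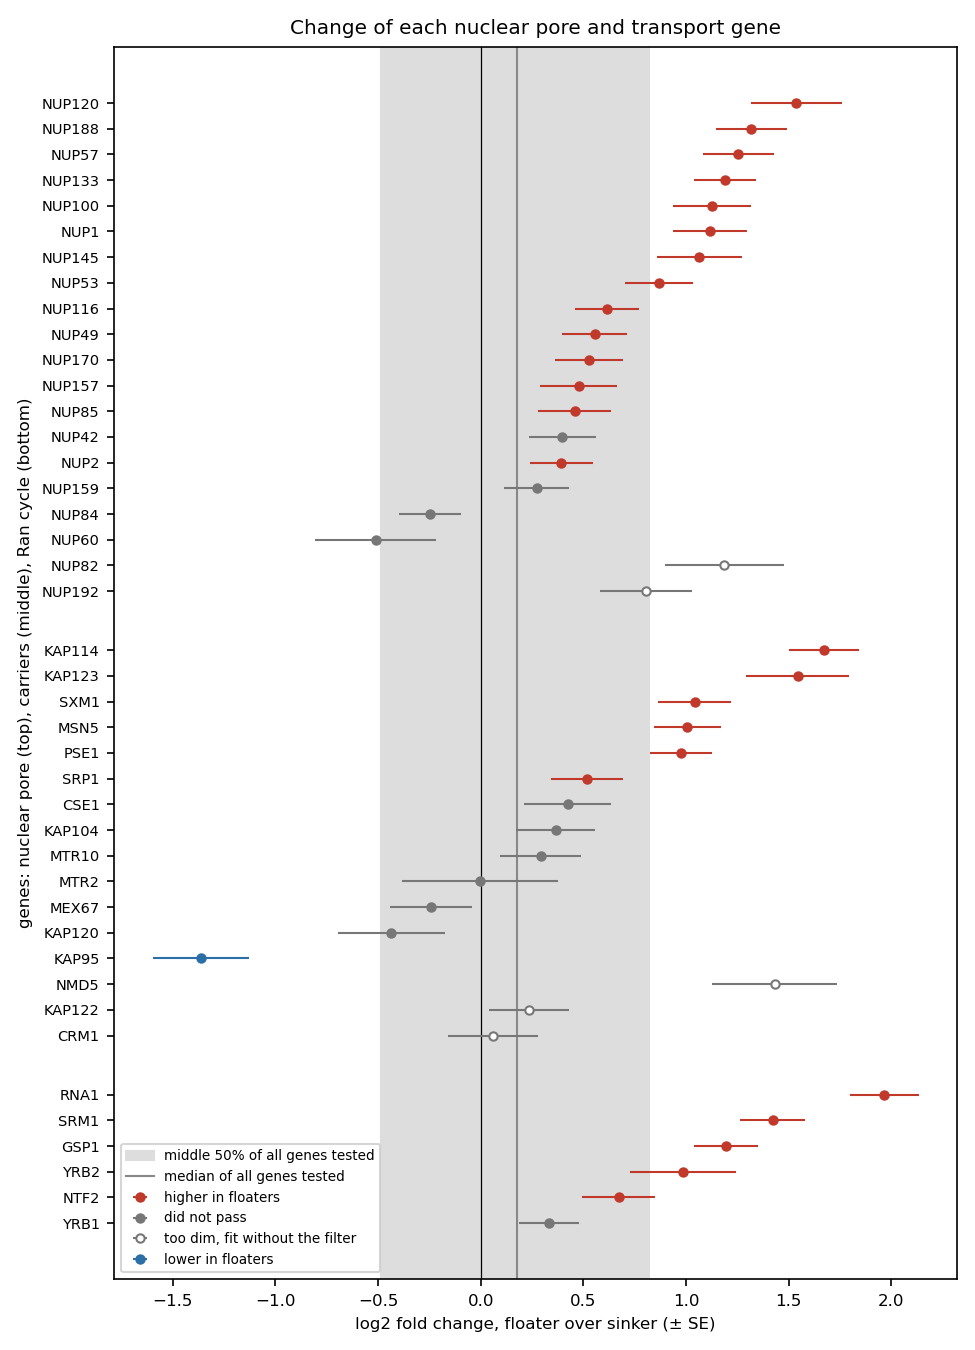
Log2 fold change of floaters over sinkers with its standard error for each member, sorted within pore, carriers and Ran cycle; red marks genes called higher, blue the gene called lower, grey those that did not pass, and open circles the 5 dim genes from a fit without the filter. The grey band holds the middle 50% of all 4242 genes, from -0.49 to 0.82, and RNA1 at 1.97 and KAP95 at -1.36 lie at the far ends of the members.

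The import carriers went both ways, and the receptor for classical nuclear localization signals, importin alpha with importin beta, was split. KAP95, which encodes importin beta, read 177, 161 and 157 in floaters, against 395, 668 and 342 in sinkers. It was the only member called lower, 2.57-fold (log2 fold change -1.36, adjusted p = 0.000516), and stayed so in every alternative run. SRP1, which encodes its partner importin alpha, read 731, 884 and 806 in floaters, against 627, 624 and 443 in sinkers. SRP1 was 1.43-fold higher (adjusted p = 0.0244), a call lost without floater replicate 2 (log2 fold change 0.45) or 3 (0.52), without sinker replicate 3 (0.36), with arrays centred on the median of the genes tested (0.32) and with the ACT1 ratio as a covariate (0.33), against 0.52. On each array the difference of log2 values, SRP1 minus KAP95, set to 0 at the sinker mean, was 1.65, 2.04 and 1.94 in floaters and lay between -0.40 and 0.34 in sinkers. A factor common to an array largely cancels in this difference, though not fully, since 16 was added to each signal. The shift was 1.97 with 1 added and 1.65 with 64 added. With 16 added, the shift of 1.88 had p = 0.1 in the exact two-sided permutation test over the 20 labellings, the smallest that 3 arrays against 3 allow. This pair was 1 of 10 picked after the values were seen, and the adjusted p of the same test over the 10 was 0.167.

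Of the 9 import carrier genes tested, 5 were higher (55.6%), 1 was lower (11.1%) and 3 did not pass. Over all genes tested 38% were called higher and 24.4% lower. KAP114, an importin known for histones and the TATA-binding protein, read 240.2, 212 and 211 in floaters, against 69.2, 50.3 and 56.4 in sinkers. This 3.19-fold rise (adjusted p = 1.58e-05) was the largest of a carrier gene tested. KAP123, the main importin of ribosomal proteins, read 297, 240.3 and 184 in floaters, against 87.4, 87.0 and 44.8 in sinkers, a 2.91-fold rise (adjusted p = 0.000328). Its value on sinker replicate 3 lay just below the brightest control on that array, and without that array its log2 fold change was 1.29 and still passed (adjusted p = 0.000574).

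Further importins of ribosomal proteins were also higher. SXM1 (Kap108) read 226, 257 and 188 in floaters, against 103, 107 and 89.7 in sinkers, a 2.06-fold rise (adjusted p = 0.000480). PSE1 (Kap121), which can stand in for Kap123, read 1711, 1471 and 1648 in floaters, against 707, 808 and 925 in sinkers, a 1.97-fold rise (adjusted p = 0.000259). The 3 importin genes that did not pass were KAP104, MTR10 and KAP120. KAP104, the importin of mRNA-binding proteins such as Nab2 and Hrp1, averaged 246 ± 50.8 in floaters and 186 ± 23.8 in sinkers. MTR10, the importin of the mRNA-binding protein Npl3, averaged 243 ± 37.3 in floaters and 196 ± 36.6 in sinkers. KAP120, linked to the import of a ribosome assembly factor, read 129, 100.0 and 90.5 in floaters against 148, 222 and 97.0 in sinkers, with a log2 fold change of -0.43 (adjusted p = 0.166). Without sinker replicate 3 it was called lower, at -0.70 (adjusted p = 0.0206), and likewise with centred arrays, at -0.64 (adjusted p = 0.0248).

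Only 2 of the 3 exportin genes could be tested. MSN5, an exportin for phosphorylated regulators such as Pho4 and Mig1, read 1127, 1107 and 1425 in floaters, against 601, 520.5 and 673 in sinkers, a 2.01-fold rise (adjusted p = 0.000342). CSE1, which carries importin alpha back out of the nucleus, read 344, 200.3 and 232 in floaters, against 182, 204 and 168 in sinkers. The groups of CSE1 overlapped, and it did not pass (1.34-fold, adjusted p = 0.105). CRM1, the main exportin for leucine-rich export signals, was dim on every array, at 45.7, 34.0 and 21.3 in floaters against 31.3, 35.0 and 25.9 in sinkers. It lay below the brightest control on 1 floater and 1 sinker array, and the groups overlapped. The importin genes NMD5 (Kap119) and KAP122 were also too dim to be tested. NMD5 read 132, 51.3 and 135 in floaters, against 29.0, 18.9 and 32.6 in sinkers, with the groups apart, and passed without the filter (1.43, adjusted p = 0.00245). Its value on sinker replicate 3 lay below the brightest control on that array. KAP122 read 80.2, 66.1 and 51.1 in floaters, against 47.5, 53.8 and 57.1 in sinkers, with the groups overlapping.

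The receptor that carries bulk mRNA out of the nucleus is not a karyopherin and does not use Ran. Neither of its subunits passed the test. MEX67, the large subunit, read 186, 146 and 139.7 in floaters, against 163, 238 and 169 in sinkers, and limma gave -0.24 ± 0.20 (log2 fold change ± SE, adjusted p = 0.305). With arrays centred on the median of the genes tested it was called lower, at -0.44 (adjusted p = 0.0499). MTR2, the small subunit, read 222, 269 and 263 in floaters, against 139, 203 and 547 in sinkers. One array decided its value: without sinker replicate 3 its log2 fold change was 0.53 (adjusted p = 0.0409), against -0.00 with it (adjusted p = 0.992).

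Genes of the Ran cycle were higher in floaters for 5 of 6 (83.3%, against 38% of all genes tested), and the other one did not pass. The median log2 fold change of the 6 was 1.09. In all 6 genes the floater values lay above the sinker values, where 41.3% of all genes tested did so. RNA1, the activator that makes Ran hydrolyse GTP in the cytoplasm, read 615, 695 and 711 in floaters, against 149, 148 and 186 in sinkers. Its 3.91-fold rise (adjusted p = 4.99e-06) was the largest of all 37 members tested and above the log2 fold change of 96.8% of all genes tested. SRM1, the nuclear exchange factor that loads Ran with GTP, read 564, 616 and 660.3 in floaters, against 221, 200.4 and 235 in sinkers, a 2.68-fold rise (adjusted p = 2.72e-05). GSP1, the main gene for Ran itself, read 2951, 2558 and 3175 in floaters, against 1293, 1381 and 1092 in sinkers, a 2.29-fold rise (adjusted p = 7.61e-05).

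The remaining Ran genes rose less or did not pass. YRB2, which encodes a nuclear Ran-binding protein that helps Crm1, read 800.3, 564 and 733 in floaters, against 433, 214 and 424 in sinkers, a 1.98-fold rise (adjusted p = 0.00670). NTF2, which carries Ran back into the nucleus, read 2228, 1948 and 1865 in floaters, against 1433, 1417 and 971 in sinkers, a 1.59-fold rise (adjusted p = 0.00716). With the ACT1 ratio as a covariate the call of NTF2 was lost (log2 fold change 0.40, adjusted p = 0.0931). YRB1, the cytoplasmic Ran-binding protein that works with Rna1, read 2531, 2652 and 2151 in floaters, against 1941, 1841 and 2021 in sinkers, and did not pass (1.26-fold, adjusted p = 0.0695). Without floater replicate 3 it passed, at a log2 fold change of 0.42 against 0.33 (adjusted p = 0.0475). GSP2, a nearly identical second gene for Ran that lies outside the member rule, did not pass, at 608 ± 143 in floaters and 891 ± 404 in sinkers. Since the sequences of both genes are so alike, their signals may not be fully separate.

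The pore members were set beside the carriers and the Ran cycle. Of the pore members tested 14 of 18 were higher (77.8%) and none lower in limma. Of the carrier genes 6 of 13 were higher (46.2%) and 1 lower, and of the Ran genes 5 of 6 were higher (83.3%) and none lower. Over all genes tested 38% were called higher and 24.4% lower, so that the carriers' share higher lay nearest to that of all genes. At an unadjusted p below 0.05 the pore and Ran members still held no lower gene. The shares by class depend on how arrays are scaled to each other. With each array centred on the median of the genes tested, 8 of the 18 pore members were higher and 1 lower. That run had 5 of the 13 carriers higher and 3 lower, and 5 of the 6 Ran genes higher and none lower. It called 1310 of all 4242 genes tested higher and 1334 lower. After quantile normalization 12 pore members were higher. The 16 other pore genes tested, which the rule does not take in, held 6 higher (37.5%) and 1 lower, and their median log2 fold change was 0.34. The medians over the genes tested were 0.58 for the pore, 0.42 for the carriers and 1.09 for the Ran cycle, and over all members with a probe set, dim ones included, they were 0.71, 0.39 and 1.09. The mean log2 value per array gave the same order of shifts. For the pore it was 8.21 ± 0.07 in floaters and 7.49 ± 0.03 in sinkers, a shift of 0.72. For the carriers it was 7.95 ± 0.12 in floaters and 7.48 ± 0.06 in sinkers, a shift of 0.47, and for the Ran cycle 10.32 ± 0.05 in floaters and 9.23 ± 0.09 in sinkers, a shift of 1.10. The mean over all genes tested shifted by 0.11, whereas the class means also hold the members too dim to be tested. These are descriptions of chosen genes, and no test was run between the classes. Carriers and Ran genes as 1 group had a median of 0.67, so that the pore median was lower by 0.09, and the sign of that difference turned in a fit without the filter on dim genes (0.11), with array weights (0.07) and without floater replicate 1 (0.06) or sinker replicate 3 (0.10).

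Differences between members that work as partners are given as a description. For 10 pairs of partners or paralogs, picked after the values were seen, the difference of their log2 values was taken on each array, with the sinker mean set to 0. In 6 pairs the groups did not overlap, each with p = 0.1 in the exact two-sided permutation test (adjusted p = 0.167 over the 10 pairs). Among single genes tested 68% had groups that did not overlap, and no such share was taken over other pairs of genes. Since 0.1 is the smallest p that 3 arrays against 3 allow, no pair could have passed. Besides SRP1 and KAP95, the largest of these shifts were RNA1 minus YRB1, at 1.45, 1.56 and 1.89 in floaters against -0.10 to 0.13 in sinkers, and NUP133 minus NUP84, at 1.46, 1.36 and 1.49 against -0.06 to 0.11. NUP120 minus NUP85, both of the outer ring, shifted by 1.08. RNA1 minus SRM1 shifted by 0.54, with floater values of 0.53, 0.58 and 0.52 and sinker values of -0.11 to 0.10. The paralogs NUP100 and NUP116 shifted apart by 0.51. In 4 pairs the groups overlapped. These were NUP157 and NUP170, with a shift of -0.05 (exact p = 0.9), SRP1 and CSE1, with 0.09 (exact p = 0.8), MEX67 and MTR2, with -0.24 (exact p = 0.8), and YRB2 and YRB1, with 0.66 (exact p = 0.2).

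**Figure D3:**
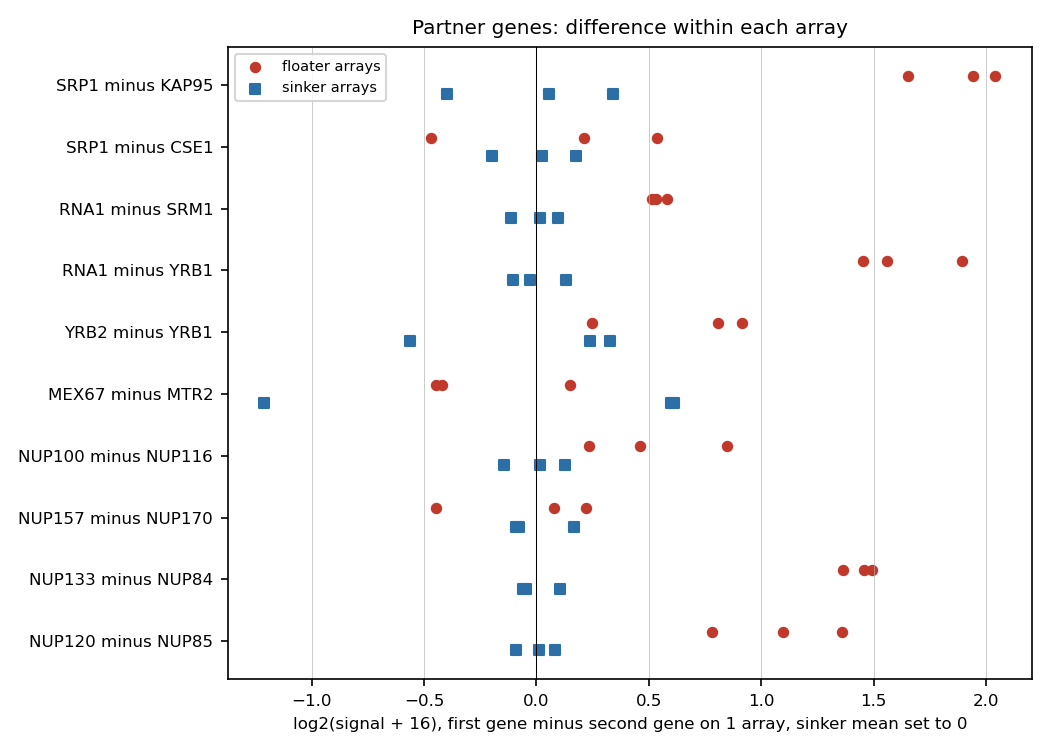
Difference of log2(signal + 16) between partner genes on each array, with the sinker mean of each pair set to 0; circles are floater arrays and squares, below them, sinker arrays. SRP1 minus KAP95, RNA1 minus YRB1 and NUP133 minus NUP84 have floater values above 1.3 and sinker values near 0, while NUP157 minus NUP170 has both groups around 0.

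Other genes of the same routes were read from lists outside the member rule. Among the 16 other pore genes the share called higher, 37.5%, was near the 38% of all genes tested, and the share called lower was 6.25%, against 24.4%. NDC1, a membrane protein that anchors the pore and also the spindle pole body, averaged 1367 ± 106 in floaters and 305 ± 44.6 in sinkers (log2 fold change 2.12, adjusted p = 2.49e-06). SEH1, of the outer ring, averaged 463 ± 18.7 in floaters and 177 ± 6.25 in sinkers. PML39, which helps to keep unspliced RNA in the nucleus, averaged 785 ± 195 in floaters and 221 ± 56.6 in sinkers. The lower gene was POM33, a membrane protein of the pore, at 1859.8 ± 269.8 in floaters and 4245 ± 605 in sinkers.

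Factors that prepare mRNA for export went both ways. The 15 such genes tested had a median of 0.10, and 6 of them (40%) were called higher and 5 (33.3%) lower, shares near those of all genes tested, 38% and 24.4%. NPL3, an mRNA-binding protein that shuttles through the pore, averaged 742 ± 124 in floaters and 2608 ± 323 in sinkers (log2 fold change -1.80). SUB2, a helicase of splicing and export, averaged 2425 ± 51.8 in floaters and 814 ± 139 in sinkers (1.57). GFD1, a partner of Dbp5 and Gle1, averaged 211 ± 18.5 in floaters and 657 ± 95.5 in sinkers (-1.56). CDC31, a centrin of the TREX-2 export complex and the spindle pole body, averaged 581 ± 137 in floaters and 1662 ± 88.2 in sinkers (-1.52).

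The 11 ribosome subunit export genes tested had a median of 1.27, and 9 of them (81.8%) were called higher. Over all genes tested 38% were called higher and 24.4% lower. None of the 11 was lower in limma, also at an unadjusted p below 0.05. RRP12, which rides with both subunits, averaged 501 ± 32.3 in floaters and 80.4 ± 11.99 in sinkers (2.43). ARX1, an export factor of the large subunit, averaged 382 ± 17.8 in floaters and 82.5 ± 24.5 in sinkers (2.05). BUD20, also of the large subunit, averaged 1363 ± 287 in floaters and 324 ± 107 in sinkers (2.05). NMD3, the adaptor between the large subunit and Crm1, averaged 411 ± 33.0 in floaters and 149.7 ± 21.1 in sinkers (1.37). As a wider frame, 42 ribosome assembly genes named UTP, RRP or NOP had a median of 1.61, with 36 higher (85.7%) and 1 lower (2.38%). The 13 PRP genes tested, mostly of splicing, had a median of 0.40. Of these 4 were higher (30.8%) and 3 lower (23.1%), shares near those of all genes tested.

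Smaller lists went both ways, where 38% of all genes tested were called higher and 24.4% lower. Of 6 genes for pore assembly and the nuclear envelope tested, APQ12 (log2 fold change 1.28) and SPO7 (1.03) were higher, and PER33 (-1.15), a paralog of POM33, and NUR1 (-0.59) were lower. Among 5 other carrier and Ran genes, MOG1, which frees nucleotide from Ran, averaged 501 ± 151 in floaters and 217 ± 22.6 in sinkers (1.11). STS1, which works with importin alpha to bring proteasomes into the nucleus, averaged 572 ± 13.2 in floaters and 1719 ± 72.5 in sinkers (-1.56). The tRNA exportin gene LOS1 did not pass (0.17).

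**Figure D4:**
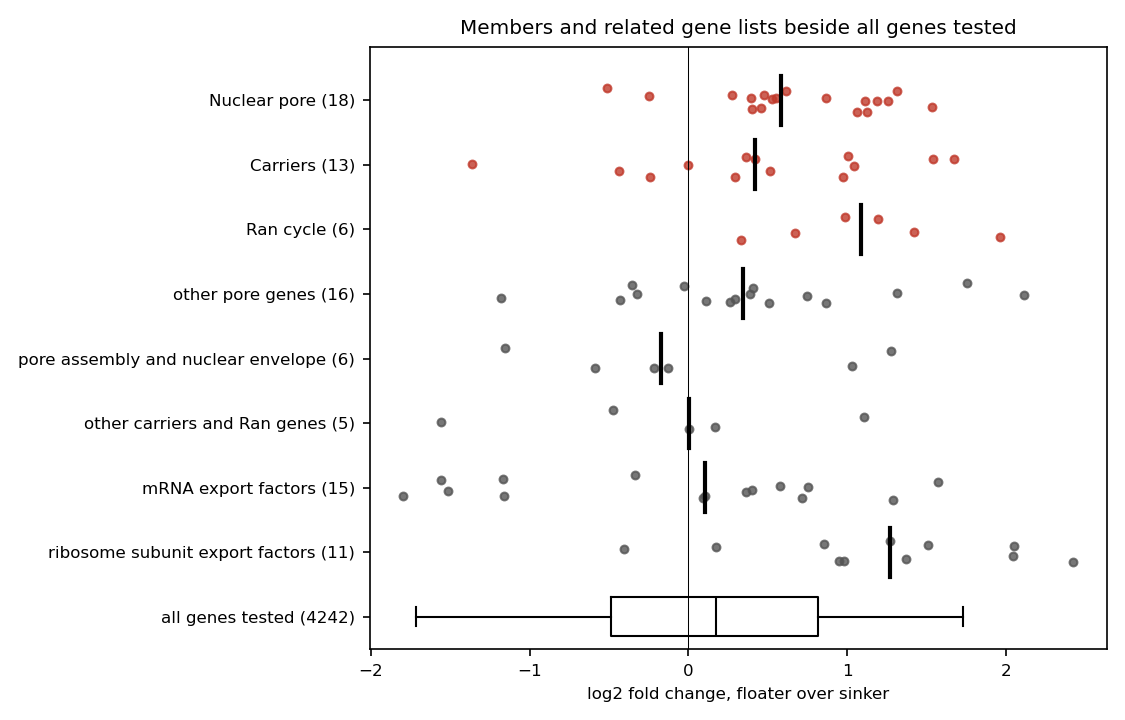
Log2 fold change of floaters over sinkers for each gene tested in the 3 member classes (red) and 5 related lists (grey), with a black bar at each median; the box shows the quartiles and the 5th and 95th percentiles of all 4242 genes tested. The median of ribosome subunit export factors, 1.27, and that of the Ran cycle, 1.09, lie above the upper quartile of all genes, 0.82, and the mRNA export factors spread on both sides of 0.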

How the data were processed

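Amplified RNA carrying biotin was made from total RNA for Affymetrix arrays, per the labels' protocols. What the authors deposited is 1 signal intensity, on a linear scale, for each of 9335 probe sets on 6 arrays. The submitters' processing notes name MAS5, and its version and settings are not stated in what was used here. Leaving out the lowest and highest 2%, array means lay between 499.8 and 499.9, a common scale. The number of arrays limits the precision.

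Probe sets were named through the platform table, with symbols from the RefSeq table of assembly R64. Values were taken as log2(signal + 16). For each of 5656 genes the brightest of its one-gene probe sets was kept, and the dimmest 25%, 1414 genes, were left out. Floaters were set against sinkers in limma 3.58.1 under R 4.3.3 (mean-variance trend, two-sided, Benjamini-Hochberg over 4242 genes, threshold 0.05), without a replicate block. The background level on an array was the highest of 19 control probe sets taken as unspiked. Partner genes were compared by exact permutation.

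Members, lists and tests were chosen with earlier results of these data known. All members could be named, and values on every array are given for the 3 largest changes per direction and class and the brightest members that did not pass, with others added after their values were seen. Outside the members up to 4 genes per list were named by smallest p, and NIC96, ASM4, NOG2, ECM1, YVH1, STE2, STE3 and LEU2 were added after their values were seen. Planned counts of sequence motifs were not made, and no coordinates are given. Alternatives were other pseudocounts, filters, scalings and probe sets, no trend, array weights, a replicate block, an RNA quality covariate and leaving out each array. Same-numbered arrays showed no clear pairing: their deviations from the group means correlated at -0.01, -0.09 and 0.16. Those of arrays with different numbers correlated at -0.21 to 0.24. With 3 arrays in each group, these values cannot show that the arrays were unpaired. Plots used matplotlib 3.10.9 (Python 3.11.15).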

Additional observations from a re-analysis of the deposited data

How the results depend on the processing

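Of the 37 members tested, 17 kept their higher call in every alternative in which they were tested, KAP95 kept its lower call, 8 higher calls were lost in at least 1 alternative and 10 of the 11 that had not passed passed or turned direction in at least 1. With each array centred on the median of the genes tested, 18 members were higher, 8 of them of the pore. In that run 4 members were lower, 1 of the pore and 3 of the carriers, where 1310 of all genes were higher and 1334 lower. The medians were -0.026 for all genes, 0.41 for the members, 0.38 for the pore, 0.22 for the carriers and 0.89 for the Ran cycle. Centring over all probe sets, added after seeing the data, left 24 members higher and 1 lower, where 1583 of all genes were higher and 1051 lower. With the dimmest 50% left out, only 21 members and 2828 genes were tested. Of these 21 members 16 were higher, 8 of the pore and 3 of the carriers, and 1 was lower. Of the 2828 genes 1104 were higher and 728 lower. The pore median was 0.52 and pore minus carriers and Ran cycle was -0.46. Without the filter the medians were 0.089 for all genes and 0.71 for the pore, and that difference was 0.11. The members' median was 0.53 with a pseudocount of 64 and 0.53 after quantile normalization, where the pore median was 0.52. With array weights 30 members were higher and 2 lower, both of the latter carriers, where 1826 of all genes were higher and 1157 lower. The medians with these weights were 0.65 for the pore, 0.52 for the carriers and 0.94 for the Ran cycle, and the difference was 0.069. With the ACT1 ratio as a covariate 20 members were higher, 11 of the pore, 5 of the carriers and 4 of the Ran cycle. In that run 2 members were lower, both carriers, where 1445 of all genes were higher and 1040 lower. The medians were 0.68 for the members and 0.66 for the pore. With the replicate number as a block 22 members were higher and 2 lower, 1 of the latter NUP60 of the pore, where 1590 of all genes were higher and 1046 lower. Whether same-numbered arrays are pairs is not known.

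Leaving out 1 array at a time gave 1450 to 1592 genes higher and 926 to 1080 lower over all genes, 21 to 24 members higher and 1 to 2 lower, 10 to 13 pore genes higher and 0 to 1 lower, and 5 to 6 carriers higher and 1 to 2 lower. Medians ran from 0.55 to 0.66 for the pore, 1.01 to 1.21 for the Ran cycle and -0.22 to 0.10 for the difference. MTR2 (-0.0048) turned to 0.0074 with a pseudocount of 1, 0.58 with array weights, 0.73 with the ACT1 covariate, and ran from -0.40 to 0.53 when 1 array was left out, above 0 without floater replicate 1 and without sinker replicate 3. Over all probe sets NUP170 was at -0.26 and NUP49 at -0.18. Pair shifts that turned without 1 array were SRP1 minus CSE1 (range -0.13 to 0.37), NUP157 minus NUP170 (-0.18 to 0.15) and MEX67 minus MTR2 (-0.84 to 0.068). Unless named, the cause was not tested. The filter on dim genes left 5 members untested, of which NUP82, NUP192 and NMD5 passed without it. NUP192 and NMD5 each lay below the brightest control on sinker replicate 3, and CRM1 did so on 2 arrays.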

Other observations

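The inner ring gene ASM4 (Nup59), a paralog of NUP53, was too dim to be tested and ran the other way from it, at 54.6 ± 17.3 in floaters and 159 ± 47.3 in sinkers, with all floater values below all sinker values. YVH1, a phosphatase of late ribosome assembly, was also too dim to be tested, at 232 ± 13.3 in floaters and 36.3 ± 25.3 in sinkers. On sinker replicate 3 it lay below the brightest control. The GTPase gene NOG2, needed before large subunits leave the nucleus, was higher, at 213 ± 27.0 in floaters and 80.3 ± 23.1 in sinkers, whereas ECM1, of the same route, did not pass, at 93.6 ± 32.0 in floaters and 126 ± 21.5 in sinkers.

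The 42 members lie on 13 chromosomes. In 3 places members have at most 5 protein-coding genes between them: KAP114 and CSE1 on chromosome VII, with 1 gene between them, NUP157 and KAP123 on chromosome V, with 2, and SRM1 and NUP145 on chromosome VII, with 4. Of these neighbours KAP114 rose 3.19-fold while CSE1 did not pass, KAP123 rose 2.91-fold and NUP157 1.39-fold, and SRM1 and NUP145 rose 2.68-fold and 2.09-fold.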
